A study of Homo sapiens with 8 samples.

Results

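The cytosolic ribosomal protein genes were followed in tumours of MDA-MB-231 cells with and without intact CDK4. The set holds every protein-coding gene of the count table whose symbol is RPL or RPS with a number and an optional A, X or L, together with RPLP0, RPLP1, RPLP2 and RPSA. S6 kinases and pseudogenes were kept out. The rule found 80 genes among the 13546 in the table, 48 of the large (60S) subunit and 32 of the small (40S) subunit, and all 80 entered the test. RPL3L also meets the rule by its name and has no row in the table.

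MDA-MB-231 is an established human line of mesenchymal triple-negative breast cancer. The cells were labelled CDK4WT (intact CDK4) or CDK4KO (CDK4 knockout), were injected into nude mice, and the RNA came from the tumours, with 4 libraries for each genotype. No other treatment, time point or mouse age was given in the labels. How CDK4 was knocked out is not told in the labels, nor whether the CDK4KO cells were 1 clone or each library had its own animal. The p-values therefore cover the variation among these 8 libraries alone, which may be technical. A nude mouse lacks most T cells and keeps its other host cells, and tumour RNA can therefore hold mouse transcripts. In bulk tumour RNA, fewer cells of a type and less RNA per cell cannot be told apart.

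A cytosolic ribosome joins a small subunit, which threads and decodes the mRNA, to a large subunit, which forms the peptide bond and passes the new chain out through a tunnel. Each subunit is ribosomal RNA clothed in ribosomal proteins, most of them present in a single copy per ribosome, so their genes are commonly expressed in step. Their mRNAs usually begin with a C followed by a run of pyrimidines, the 5' terminal oligopyrimidine (5' TOP) motif, through which mTORC1 and LARP1 control their translation and stability. MYC and growth signals raise the output of these genes, and dividing cells spend much of their transcription on them.

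Promoter sequences from RefSeq (GRCh38.p14) were found for 64 of the 80 genes. The windows of 9 genes are shown because the results below turn on them: RPL26, RPL35A, RPL24, RPL38 and RPL27 had the 5 smallest p-values of the large subunit and RPS21 the smallest of the small subunit. RPS27L is the small-subunit paralog with non-overlapping groups, and RPL22 and its paralog RPL22L1 had fold changes of opposite sign. Each window runs 5' to 3' on the coding strand from 80 bases before the annotated start to 20 bases from it, with capitals for the pyrimidine run at the start and for CCGGAAG, a core bound by ETS-family factors, on either strand. For a gene with several annotated starts, the start with the longest pyrimidine run was chosen, so the windows are not a neutral pick.
RPL26: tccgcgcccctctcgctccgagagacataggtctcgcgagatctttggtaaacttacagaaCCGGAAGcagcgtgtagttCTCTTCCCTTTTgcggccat
RPL35A: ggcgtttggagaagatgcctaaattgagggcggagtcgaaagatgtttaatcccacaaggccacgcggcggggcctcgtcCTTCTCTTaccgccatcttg
RPL24: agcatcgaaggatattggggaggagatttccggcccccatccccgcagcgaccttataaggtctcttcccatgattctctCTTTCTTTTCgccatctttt
RPL38: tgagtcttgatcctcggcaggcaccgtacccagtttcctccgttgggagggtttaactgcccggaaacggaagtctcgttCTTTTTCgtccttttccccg
RPL27: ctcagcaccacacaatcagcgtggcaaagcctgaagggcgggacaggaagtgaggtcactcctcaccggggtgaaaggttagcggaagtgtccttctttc
RPL22: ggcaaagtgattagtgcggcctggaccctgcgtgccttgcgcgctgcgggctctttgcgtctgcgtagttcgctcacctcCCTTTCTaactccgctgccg
RPL22L1: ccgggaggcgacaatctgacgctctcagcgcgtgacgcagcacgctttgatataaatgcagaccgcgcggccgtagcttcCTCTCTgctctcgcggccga
RPS21: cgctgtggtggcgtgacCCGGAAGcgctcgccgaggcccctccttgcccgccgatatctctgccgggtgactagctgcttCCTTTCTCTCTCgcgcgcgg
RPS27L: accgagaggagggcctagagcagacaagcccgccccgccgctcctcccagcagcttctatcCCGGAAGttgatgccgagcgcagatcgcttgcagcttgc
The windows lie at chr17:8383174-8383273 (RPL26, minus strand), chr3:197950110-197950209 (RPL35A, plus strand), chr3:101686699-101686798 (RPL24, minus strand), chr17:74203598-74203697 (RPL38, plus strand), chr17:42998339-42998438 (RPL27, plus strand), chr1:6199576-6199675 (RPL22, minus strand), chr3:170870176-170870275 (RPL22L1, minus strand), chr20:62387023-62387122 (RPS21, plus strand) and chr15:63157458-63157557 (RPS27L, minus strand). Of these, RPL26, RPL35A, RPL24, RPL38, RPS21, RPL22 and RPL22L1 start on a C with a pyrimidine run of 6 to 12 bases, and RPL27 and RPS27L do not at their annotated start. CCGGAAG lies 19 bases before the start in RPL26 and RPS27L and 63 bases before it in RPS21.

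The pyrimidine start was searched as a C within 5 bases of the annotated start, followed by at least 4 pyrimidines and not itself preceded by a pyrimidine unless it was exactly at the start. In this search and in those for the motifs below, a gene counted once, as a match if any of its annotated starts matched. The pyrimidine start was found in 50 of the 64 genes (78.1%), in 31 of 39 of the large subunit (79.5%) and in 19 of 25 of the small subunit (76.0%). The same search found it in 23.2% of the 10667 genes of the table with a promoter, in 18.8% of all 27305 genes with one, and in 11 of 68 genes for mitochondrial ribosomal proteins (16.2%). In the full 300-base promoters, on both strands, CCGGAAG was in 35.9% of the 64 genes against 22.1% of the table's genes and 12.2% of all genes with a promoter. TCTCGCGA was in 18.8% against 2.8% and 1.4%. The MYC-type E-box CACGTG was in 6.2% against 12.2% and 8.8%. These are matches of letters and not measured binding.

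Library totals ran from 27840883 to 33617977 counts. CDK4 itself was at 107 to 116 CPM (counts scaled to an effective library size of 1000000) in the CDK4WT libraries and at 111 to 134 CPM in the CDK4KO libraries, a log2 fold change of 0.12 ± 0.07 (SE; edgeR adjusted p = 0.477). The mRNA level thus did not separate the genotypes, and it is no check of a knockout whose kind is not stated. All 7 MDA-MB-231 markers were measured, with summed levels of 13210 to 15770 CPM in CDK4WT and 11430 to 15880 CPM in CDK4KO, and of the markers low in this cell type ESR1, PGR and CDH1 had no row in the table and ERBB2 was measured at 95.4 to 109 CPM.

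The 80 genes took about 3% of all counts in every library, with a smaller mean share in CDK4KO that did not clear the spread of the CDK4WT libraries. The share was 3.47%, 3.15%, 3.40% and 3.88% in CDK4WT replicates 1 to 4 and 3.08%, 3.22%, 3.28% and 3.05% in CDK4KO replicates 1 to 4. CDK4WT replicate 4 stood highest, and CDK4WT replicate 2 lay inside the CDK4KO range, so the groups overlap. The means were 3.47% ± 0.304 (SD, n = 4) and 3.16% ± 0.111 (SD, n = 4), a difference of -0.316 percentage points. Without CDK4WT replicate 4 the difference was -0.181 points. Wilson 95% intervals reached at most 0.007 points to either side of each share and cover counting error only. Leaving mitochondrially encoded transcripts out of the totals gave a difference of -0.336 points.

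**Figure D1:**
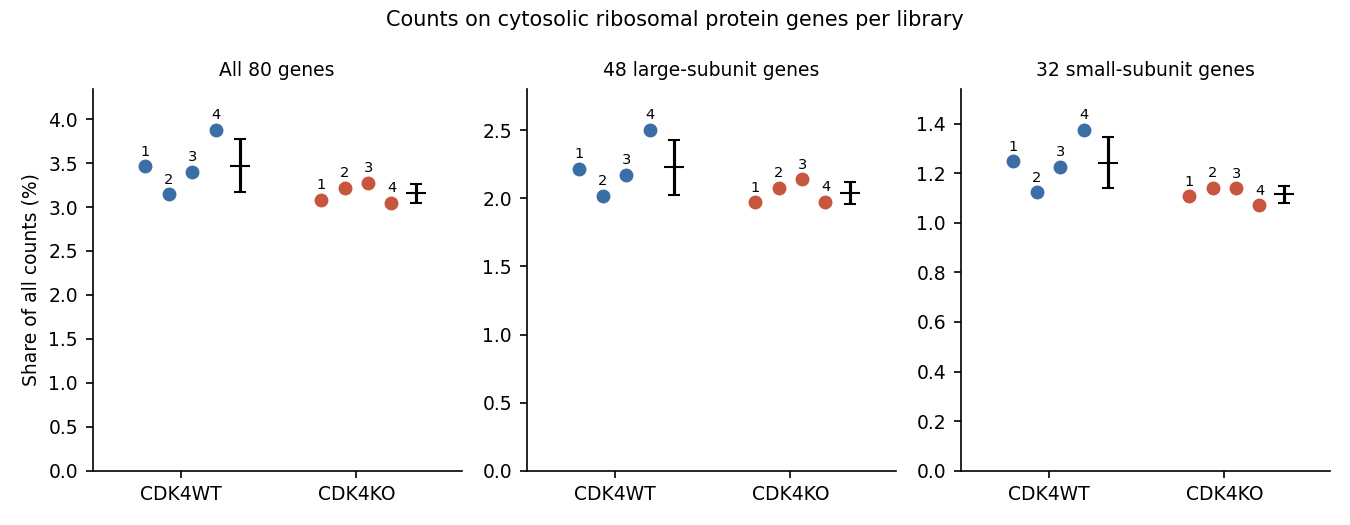
Share of all counts (%, vertical axis from 0) on the 80 genes and on each subunit's genes, by genotype; each point is a library with its replicate number, and the bar gives mean and SD. CDK4WT replicate 4 is the highest point at 3.88% in the left panel, and CDK4WT replicate 2 (3.15%) lies among the CDK4KO libraries.

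Gene by gene, no ribosomal protein gene passed the test, and nearly all pointed the same way by a small amount. The fold changes were fitted with edgeR's quasi-likelihood test over all 13546 genes. At an adjusted p of 0.05, 0 of the 80 genes were called, where 0.0591% of all genes were (8 genes), and the members' adjusted p ran from 0.158 to 0.943. Fold changes are log2 of CDK4KO over CDK4WT, and they were below 0 for 77 of the 80 genes, against 48.8% of all genes. Their median was -0.16 (-10.6%) beside 0.00 over all genes, and the quartiles of the members were -0.23 and -0.09. At an unadjusted p under 0.05, 28 members were lower and 0 higher in CDK4KO. Of all 13546 genes, 858 (6.33%) were lower and 900 higher. With DESeq2, 3 members passed an adjusted p of 0.05 in the lower direction, RPL26 (0.0237), RPL35A (0.0334) and RPL24 (0.046), where 1.07% of all genes did.

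The size of this shift rests in part on 1 library. CDK4WT replicate 4 was the highest of the 8 libraries for 73 of the 80 genes, while it was the highest for 15.67% of all genes. The 7 exceptions were RPL17, RPL39L, RPL22, RPL10L, RPS7, RPS10 and RPS12. Averaged over the 80 genes, the log2 level relative to each gene's own mean was 0.07, -0.07, 0.06 and 0.26 in CDK4WT replicates 1 to 4 and -0.09, -0.04, -0.04 and -0.14 in CDK4KO replicates 1 to 4. CDK4WT replicate 2 was thus lower than 2 of the CDK4KO libraries. Without CDK4WT replicate 4 the median log2 fold change was -0.09, with 70 of 80 genes below 0 and 16 lower at an unadjusted p under 0.05 (5.87% of all genes in that fit). Without CDK4WT replicate 2 it was -0.21, with 38 such genes (5.63% of all genes in that fit). The lowest library was CDK4KO replicate 4 for 36 genes, CDK4KO replicate 1 for 25 and CDK4WT replicate 2 for 9. Without CDK4KO replicates 1 and 4 together, an alternative added after seeing the data, the median was -0.11 and 16 genes were lower at that p. The share of all genes lower at that p was not counted for this fit.

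**Figure D2:**
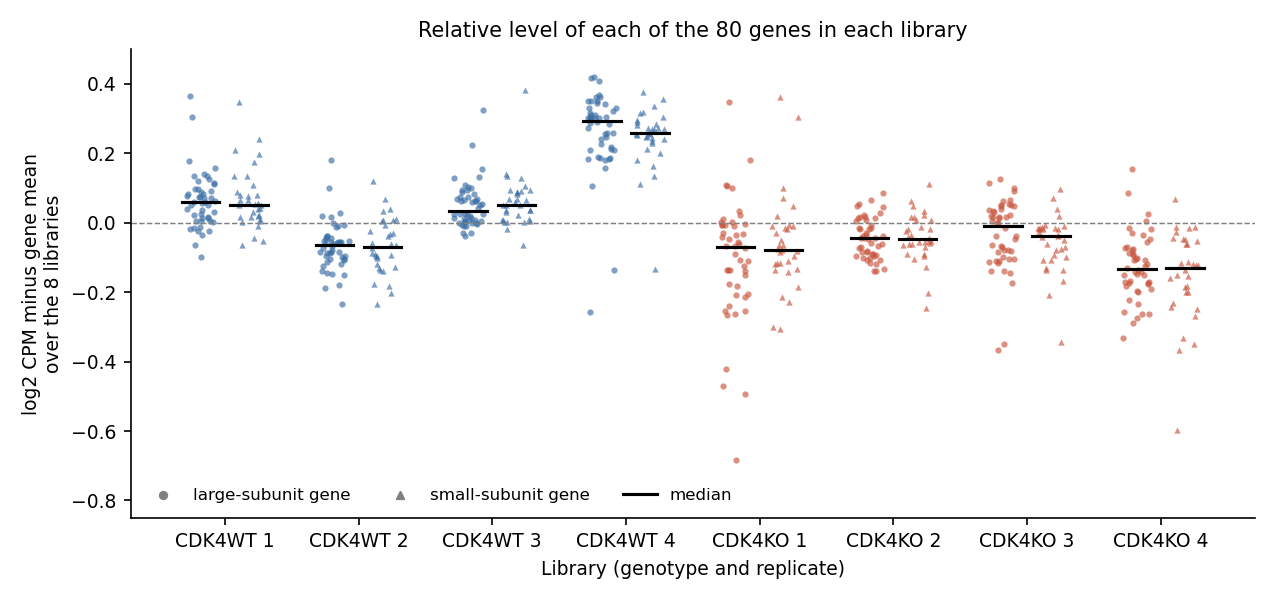
log2 CPM of each gene minus its mean over the 8 libraries (vertical axis), by library; circles are large-subunit and triangles small-subunit genes, and black bars are medians. Most genes of both subunits lie above 0 in CDK4WT replicate 4 and below 0 in CDK4WT replicate 2 and CDK4KO replicates 1, 2 and 4.

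The contrast of the subunits was small beside the spread within each. The median log2 fold change was -0.15 over the 48 large-subunit genes, of which 47 were below 0, and -0.17 over the 32 small-subunit genes, of which 30 were, a difference of 0.02. Within a subunit the fold changes had an SD of 0.10 and 0.08. At an unadjusted p under 0.05, 16 large-subunit genes (33.3%) and 12 small-subunit genes (37.5%) were lower. The summed CPM of the large-subunit genes over that of the small-subunit genes, a ratio within a library, was 1.78, 1.80, 1.77 and 1.82 in CDK4WT replicates 1 to 4 and 1.78, 1.82, 1.88 and 1.84 in CDK4KO replicates 1 to 4. The groups overlap, with means of 1.79 ± 0.0215 and 1.83 ± 0.0412 (SD, n = 4 each). On the log2 scale the ratio differed by 0.03, and by 0.00 when each gene's log2 CPM was weighted equally.

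Every CDK4KO library lay below every CDK4WT library for 17 of the 80 genes (21.2%), where 3.81% of all genes did so. They include RPL26, RPL35A, RPL24, RPL38, RPL27, RPL9, RPL36A, RPL7, RPL5 and RPL32 in the large subunit and RPS21, RPS27A, RPS27L, RPS2, RPS13 and RPS7 in the small subunit. No member had all CDK4KO libraries above. Leaving out 1 library at a time gave 17 to 20 such genes, except 40 without CDK4WT replicate 2, while the share over all genes was 4.77% to 7.85%.

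**Figure D3:**
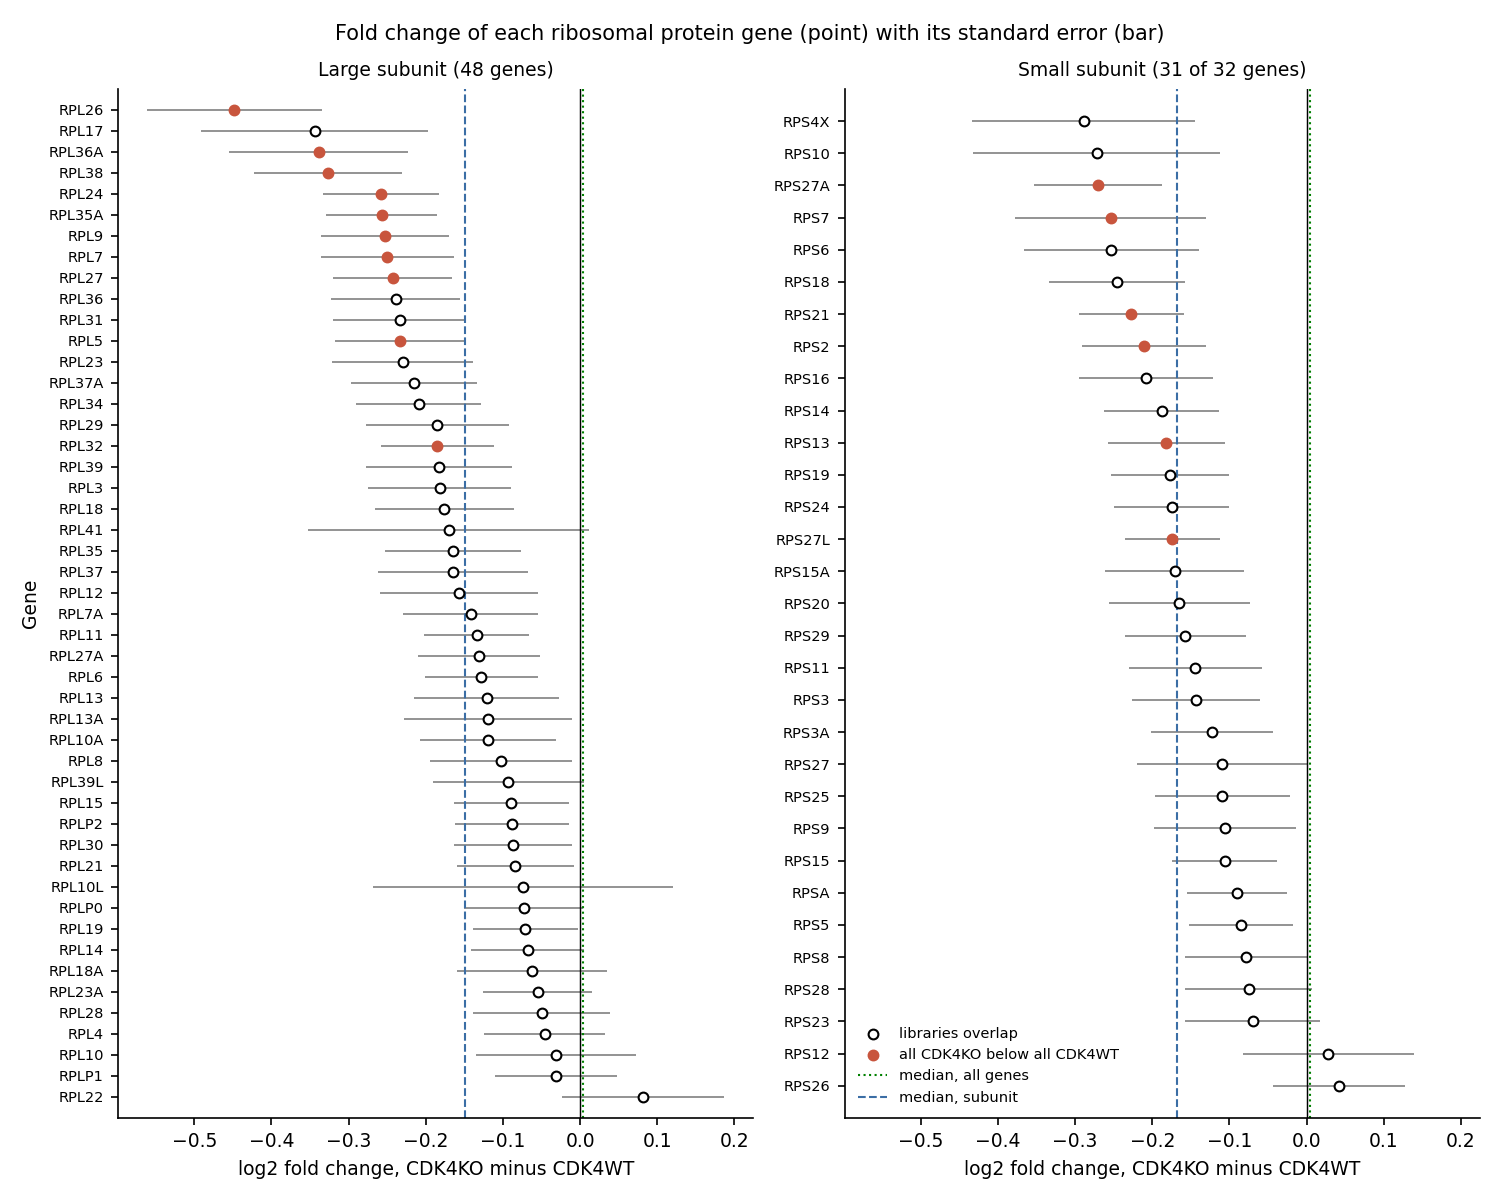
log2 fold change, CDK4KO minus CDK4WT (horizontal axis), of each gene with its standard error, large subunit on the left and small subunit on the right; filled points are genes whose CDK4KO libraries all lie below their CDK4WT libraries, the dashed line is the subunit's median and the dotted line that of all genes. 1 small-subunit gene is not drawn. The points lie between -0.45 (RPL26) and 0.08 (RPL22).

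Around the mouth of the exit tunnel, where chaperones and the signal recognition particle meet the new chain, all 7 genes had values below 0, from -0.45 (RPL26) to -0.06 (RPL23A). RPL26, which is mutated in some families with Diamond-Blackfan anaemia, was at 21.0, 17.2, 18.9 and 22.7 CPM in CDK4WT replicates 1 to 4 and at 12.04, 15.8, 15.1 and 15.6 CPM in CDK4KO replicates 1 to 4. All CDK4KO libraries were lower and CDK4KO replicate 1 was the lowest. Its log2 fold change was -0.45 ± 0.11 (SE; edgeR adjusted p = 0.158), the lowest among the 80 genes, and it stayed between -0.52 and -0.37 when any 1 library was left out. RPL26 rests on 352 to 661 counts a library and shares 14.3% of its exon bases with another annotated gene. RPL17 followed at -0.34 ± 0.15, with overlapping groups, and is uncertain because it overlaps the readthrough gene RPL17-C18orf32. RPL31 was at -0.23 ± 0.09 and RPL39, an X-linked gene for a short protein of the tunnel wall, at -0.18 ± 0.10. RPL35 and RPL23A, which dock the signal recognition particle, were at -0.17 ± 0.09 and -0.06 ± 0.07, and RPL19 at -0.07 ± 0.07.

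RPL35A, another gene of Diamond-Blackfan anaemia, was at 334, 292, 321 and 366 CPM in CDK4WT replicates 1 to 4 and at 275, 285, 272 and 267 CPM in CDK4KO replicates 1 to 4. The groups do not overlap, though CDK4WT replicate 2 and CDK4KO replicate 2 nearly met. The log2 fold change was -0.26 ± 0.07 (edgeR adjusted p = 0.190), on 8040 to 10564 counts a library and with no exon base shared with another gene. RPL24, which forms a bridge to the small subunit, was at 376, 344, 372 and 427 CPM in CDK4WT replicates 1 to 4 and at 291, 325, 332 and 323 CPM in CDK4KO replicates 1 to 4. Here too all CDK4KO libraries were the lower ones, at -0.26 ± 0.08 (edgeR adjusted p = 0.205). At their annotated starts, RPL35A and RPL24 carry the runs CTTCTCTT and CTTTCTTTTC of the windows above.

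RPL38, which mouse embryos need for the translation of certain Hox mRNAs, was at 148, 137, 147 and 172 CPM in CDK4WT replicates 1 to 4 and at 100.04, 122, 125 and 134 CPM in CDK4KO replicates 1 to 4. CDK4KO replicate 1 was the lowest and CDK4KO replicate 4 came close to CDK4WT replicate 2. The log2 fold change was -0.33 ± 0.10 (edgeR adjusted p = 0.212). RPL27 was at 333 to 427 CPM in CDK4WT and 299 to 328 CPM in CDK4KO (-0.24 ± 0.08), and RPL9 at 306 to 407 CPM and 277 to 302 CPM (-0.25 ± 0.08). Neither RPL27 nor RPL38 nor RPL24 has many processed copies in the genome, with 1, 3 and 4 named pseudogenes, while RPL9 has 17. RPL38 shares 17.7% of its exon bases with another annotated gene.

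RPL5 and RPL11 join 5S rRNA in the 5S RNP, the particle that binds MDM2 when ribosome assembly is disturbed. RPL5 was at 620, 585, 617 and 726 CPM in CDK4WT replicates 1 to 4 and at 569, 572, 548 and 479 CPM in CDK4KO replicates 1 to 4. All CDK4KO libraries lay lower, with CDK4KO replicate 4 lowest, at a log2 fold change of -0.23 ± 0.08 (edgeR adjusted p = 0.281). RPL11 was at -0.13 ± 0.07 with overlapping groups.

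The proteins of the P stalk, which recruits the GTPase factors of translation, had values nearer 0. RPLP0, the stalk's base, was at 1729, 1625, 1734 and 1996 CPM in CDK4WT replicates 1 to 4 and at 1601, 1704, 1787 and 1642 CPM in CDK4KO replicates 1 to 4. The ranges overlap in part, with CDK4WT replicate 4 the highest library and CDK4KO replicate 1 the lowest, and the log2 fold change was -0.07 ± 0.08. RPLP1 and RPLP2, its acidic partners, were at -0.03 ± 0.08 and -0.09 ± 0.07. RPL10, an X-linked protein that joins the large subunit late in its maturation, was at -0.03 ± 0.10 and changed sign without CDK4WT replicate 4 (0.07).

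In the small subunit, RPS21 had the smallest p-value. It was at 256, 234, 239 and 282 CPM in CDK4WT replicates 1 to 4 and at 213, 217, 208 and 226 CPM in CDK4KO replicates 1 to 4, without overlap. The log2 fold change was -0.23 ± 0.07 (edgeR adjusted p = 0.219). RPS27A, translated as a fusion to ubiquitin and so a source of both, was at 353, 337, 361 and 392 CPM in CDK4WT replicates 1 to 4 and at 324, 315, 304 and 254 CPM in CDK4KO replicates 1 to 4. CDK4KO replicate 4 was the lowest of the 8, and the log2 fold change was -0.27 ± 0.08 (edgeR adjusted p = 0.224).

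At the mRNA entry channel, RPS2 was at 786 to 975 CPM in CDK4WT and 682 to 760 CPM in CDK4KO (-0.21 ± 0.08) and RPS3 at -0.14 ± 0.08 with overlapping groups. On the exit side RPS14, RPS28 and RPS26 were at -0.19 ± 0.08, -0.08 ± 0.08 and 0.04 ± 0.09. RPS26, whose absence from some ribosomes changes which mRNAs they read in yeast, was thus among the 3 genes above 0. RPS6, the protein that S6 kinases phosphorylate downstream of mTORC1, was at 709, 541, 659 and 785 CPM in CDK4WT replicates 1 to 4 and at 581, 591, 607 and 481 CPM in CDK4KO replicates 1 to 4. CDK4WT replicate 2 lay within the CDK4KO values, and the log2 fold change was -0.25 ± 0.11 (edgeR adjusted p = 0.380). RPSA, also known as the laminin receptor precursor, was at -0.09 ± 0.07, and RPS18 at -0.25 ± 0.09.

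Among 10 genes mutated in Diamond-Blackfan anaemia, a congenital failure of red cell production, 9 were below 0 and 6 were lower at an unadjusted p under 0.05, with a median of -0.24. At that p 28 of the 80 ribosomal protein genes and 6.33% of all genes were lower. Besides RPL26, RPL35A, RPL5 and RPL11, the values were -0.18 ± 0.08 for RPS19 and -0.18 ± 0.07 for RPS24. RPS7 was at -0.25 ± 0.12, RPS10 at -0.27 ± 0.16 and RPS26 above 0.

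In RPS4X, RPS7 and RPS27A a single CDK4KO library stood apart, and the median of the genes next to them on the chromosome moved the same way in it. RPS4X, on Xq and with a Y-linked copy (RPS4Y1, no row in the table), was at 672, 615, 653 and 794 CPM in CDK4WT replicates 1 to 4 and at 755, 516, 482 and 486 CPM in CDK4KO replicates 1 to 4. CDK4KO replicate 1 lay at the CDK4WT level and the other 3 CDK4KO libraries lay below every CDK4WT library. The log2 fold change was -0.29 ± 0.14 (edgeR adjusted p = 0.431) and, without CDK4KO replicate 1, -0.47 (adjusted p = 0.0326). The median relative log2 level of the 20 measured genes nearest to it was 0.11, 0.10, 0.11 and 0.09 in CDK4WT replicates 1 to 4 and 0.25, -0.16, -0.37 and -0.10 in CDK4KO replicates 1 to 4. RPS7 on chromosome 2 was at 316 to 328 CPM in CDK4WT and at 289, 314, 278 and 192 CPM in CDK4KO replicates 1 to 4. In CDK4KO replicate 4 its relative log2 level was -0.60 and the median of its 19 neighbours -0.43. RPS27A, on the same chromosome, had a relative log2 level of -0.37 in CDK4KO replicate 4, where its 20 neighbours had a median of -0.33, and of -0.02, -0.06 and -0.11 in CDK4KO replicates 1 to 3, where theirs was 0.02, 0.07 and 0.04. RPS12 on chromosome 6 was at 409 to 472 CPM in CDK4WT and at 562, 432, 398 and 385 CPM in CDK4KO replicates 1 to 4. The median of its neighbours stood apart in a pair of libraries in opposite directions, at 0.25 in CDK4KO replicate 1 and at -0.29 in CDK4KO replicate 4, beside 0.36 and -0.18 for RPS12. Whether gene dosage differed in these regions was not tested.

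**Figure D4:**
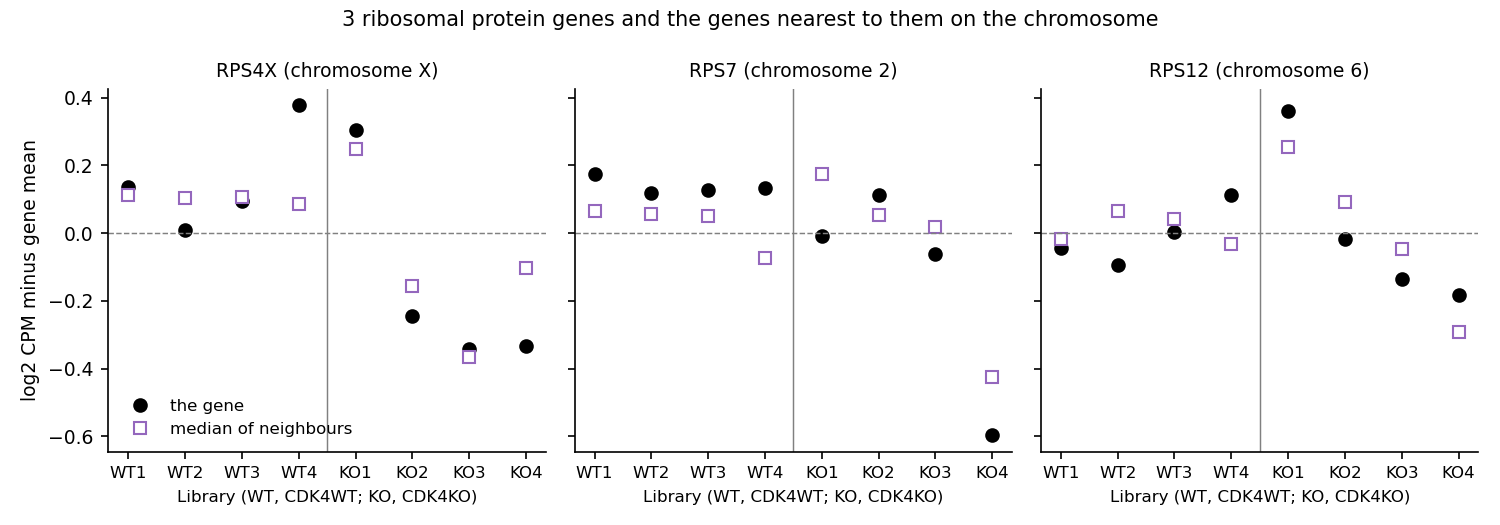
log2 CPM minus the gene's mean over the 8 libraries (vertical axis) by library, for RPS4X, RPS7 and RPS12 (filled circles) and as the median of up to 20 nearest measured genes (open squares). RPS4X and its neighbours are high in CDK4KO replicate 1 and low in the other CDK4KO libraries, and RPS7 and its neighbours are low in CDK4KO replicate 4 (-0.60 and -0.43).

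Between genotypes, the neighbours of these genes of small p-value had median log2 fold changes near 0. They were -0.02 for RPL26, -0.03 for RPL35A (11 neighbours), 0.00 for RPL24, 0.05 for RPL38 and 0.00 for RPS21. Single libraries could lie further from 0. The RPS21 neighbours had a median relative log2 level of 0.164 in CDK4KO replicate 1 and -0.175 in CDK4KO replicate 2, beside -0.132 and -0.103 for RPS21.

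RPL41, which encodes the smallest ribosomal protein and is named after its values were seen, was low in 1 library. It was at 99.4, 94.4, 105 and 134 CPM in CDK4WT replicates 1 to 4 and at 62.3, 101, 109 and 112 CPM in CDK4KO replicates 1 to 4. Its standard error (0.18) exceeded its log2 fold change of -0.17.

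RPL22 and its paralog RPL22L1, which can take its place in the large subunit, had fold changes of opposite sign. RPL22, an RNA-binding ribosomal protein lost in some tumours, was at 88.5, 83.7, 90.2 and 99.6 CPM in CDK4WT replicates 1 to 4 and at 118, 95.7, 87.5 and 82.2 CPM in CDK4KO replicates 1 to 4. Its log2 fold change of 0.08 ± 0.11 turned to -0.03 without CDK4KO replicate 1. RPL22L1, outside the symbol rule, was at 55.9, 42.6, 54.6 and 56.0 CPM in CDK4WT replicates 1 to 4 and at 27.6, 35.6, 39.3 and 30.8 CPM in CDK4KO replicates 1 to 4. All CDK4KO libraries lay below. The library with the most RPL22, CDK4KO replicate 1, held the least RPL22L1, and the other libraries did not follow this inverse order. CDK4KO replicate 4, with the least RPL22, held the next-lowest RPL22L1. Among the CDK4WT libraries, replicate 2 was the lowest and replicate 4 the highest for both genes. The log2 fold change was -0.65 ± 0.12 (edgeR adjusted p = 0.0749; DESeq2 adjusted p = 0.000156), larger in size than that of any of the 80 genes. Leaving out 1 library at a time gave -0.74 to -0.57 with edgeR adjusted p-values from 0.0429 to 0.254.

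**Figure D5:**
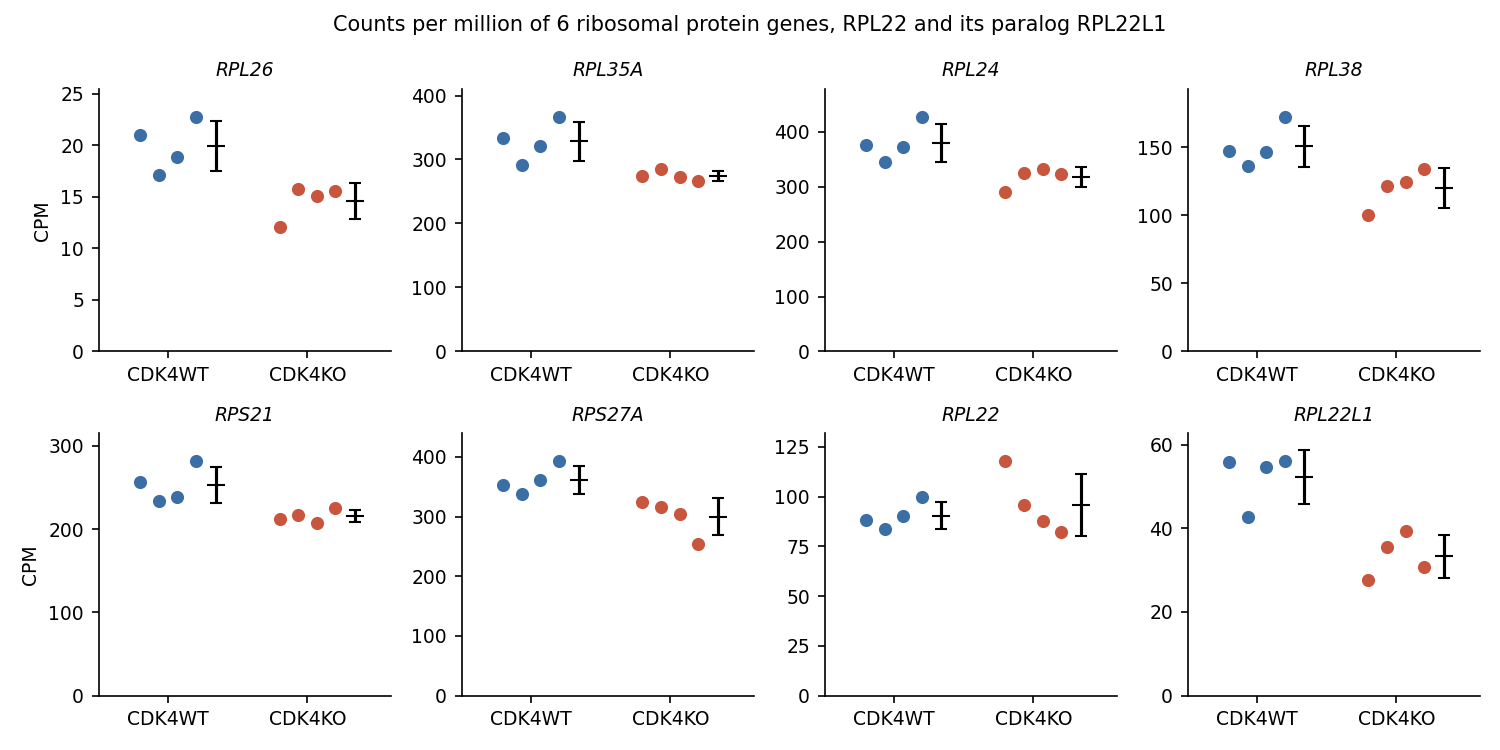
CPM (vertical axes from 0) of RPL26, RPL35A, RPL24, RPL38, RPS21, RPS27A, RPL22 and RPL22L1 by genotype; points are libraries in replicate order, bars are mean and SD. The groups do not overlap except for RPL22, which is highest in CDK4KO replicate 1 at 118 CPM.

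Other ribosomal genes outside the symbol rule were closer to the members. FAU, translated as a fusion of RPS30 to a ubiquitin-like protein, was at -0.11 ± 0.06, and RPL36AL, RPL26L1 and RPL7L1 lay between -0.09 and -0.05. Of the 3 paralogs that the rule admits, RPS27L was at 39.8, 39.2, 39.6 and 44.0 CPM in CDK4WT replicates 1 to 4 and at 37.5, 35.8, 35.5 and 35.4 CPM in CDK4KO replicates 1 to 4, without overlap (-0.17 ± 0.06). RPL39L and RPL10L, best known from the testis, were at -0.09 ± 0.10 and -0.07 ± 0.19, the latter on 41 to 70 counts a library.

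Levels between genes were compared as CPM per kilobase of the median coding transcript. The median over the 80 genes was 543, with 562 for the large and 474 for the small subunit. RPLP0 was highest at 1894, then RPL10 at 1640, and RPS18 led the small subunit at 1170. RPL10 shares 55.5% of its exon bases with 3 other annotated genes and has 19 named pseudogenes. RPL10L was lowest at 2.13, and RPS10 (5.29), RPL17 (8.35), RPL36A (12.4) and RPL26 (29.5) were also far below the median although each is a standard part of the ribosome. RPS10 and RPL36A share 39.4% and 8.4% of their exon bases with the annotated readthrough genes RPS10-NUDT3 and RPL36A-HNRNPH2. RPL17 shares 35.3% of its exon bases with 5 other annotated genes, among them the readthrough gene RPL17-C18orf32. How reads on the shared bases of RPS10, RPL17 and RPL36A were assigned is not given in the sources used here. The levels and fold changes of these genes are therefore uncertain. The same holds for RPL26, which shares 14.3% of its exon bases with another annotated gene. Whether the overlap lowers the counts of any of them was not tested. RPL17 (-0.34 ± 0.15) and RPL36A (-0.34 ± 0.12) were also 2 of the 3 lowest fold changes in the large subunit.

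The 30 members that share no exon base with another gene had a median of -0.17. The 44 members with at most 10 named pseudogenes had a median of -0.13 with 44 of 44 below 0, and the 36 with more than 10 had -0.18. The 94 rows of ribosomal protein pseudogenes in the table summed to 316 to 403 CPM in CDK4WT and 334 to 369 CPM in CDK4KO, and 68 of them were below 0 with a median of -0.12. Reads from processed copies and from the parent genes can be exchanged in counting, so these rows are no separate measurement. Among members of at least 50 CPM the median was -0.14, where all 4839 genes at that level had 0.01 and 45.8% of them lay below 0. Members with the pyrimidine start had a median of -0.17 (50 genes) and those with a promoter and no such start -0.14 (14 genes).

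Other genes of translation had medians nearer 0. Of 22 translation factors and other 5' TOP mRNAs, 21 were measured and 18 (85.7%) were below 0, with a median of -0.09. By edgeR or DESeq2, 0 of them passed an adjusted p of 0.05. Over all genes, 48.8% were below 0 and 6.33% were lower at an unadjusted p under 0.05. At that p, 3 of the 21 (14.3%) were lower. The 3 were COX7C (-0.18 ± 0.06), EIF2S3 (-0.14 ± 0.05) and EEF1B2 (-0.16 ± 0.07), a respiratory chain subunit, a subunit of the initiator tRNA factor and a nucleotide exchange factor of elongation. Of 13 snoRNA host transcripts, many of which carry a 5' TOP, 10 were below 0 with a median of -0.09. At an unadjusted p under 0.05, 4 of them (30.8%) were lower and 1 was higher, beside 6.33% of all genes lower. At an adjusted p of 0.05, edgeR called 0 of them, DESeq2 1 and limma voom 2. Of all 13546 genes, these methods called 8, 315 and 285 in either direction. GAS5, a spliced non-coding RNA whose introns hold a cluster of snoRNAs, was at 128, 109, 132 and 145 CPM in CDK4WT replicates 1 to 4 and at 94.2, 82.9, 77.6 and 97.9 CPM in CDK4KO replicates 1 to 4. Its groups do not overlap, and its log2 fold change was -0.54 ± 0.10 (edgeR adjusted p = 0.0749; DESeq2 adjusted p = 0.000124). SNHG5 was at 0.38 ± 0.11 (edgeR adjusted p = 0.195).

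The 77 genes of the mitochondrial ribosome had a median of -0.04, with 56 (72.7%) below 0, against 48.8% of all genes. At an unadjusted p under 0.05, 5 of them were lower, beside 6.33% of all genes, and 1 was higher. The 17 genes of mTORC1 signalling and 5' TOP control had a median of -0.03, with 9 below 0. At an unadjusted p under 0.05, 0 of them were lower and 3 higher, where 900 of all 13546 genes were higher. PDCD4, an inhibitor of the helicase EIF4A, was at 0.19 ± 0.05 (edgeR adjusted p = 0.175; DESeq2 adjusted p = 0.0231) and AKT1S1, the mTORC1 inhibitor PRAS40, at 0.30 ± 0.09 (adjusted p = 0.224). The 9 genes of the MYC network had a median of 0.01, with 4 below 0. Those of smallest p went in both directions. MXD4, a MAX partner, was at 0.21 ± 0.07, MXI1 at -0.27 ± 0.14 and MAX at 0.105 ± 0.065. MYC itself, named after its values were seen, was at -0.14 ± 0.11. The 20 dedicated chaperones and late assembly factors had a median of -0.02 with 11 below 0. Of these 4 lists 0 genes passed edgeR's adjusted p of 0.05, DESeq2 called PDCD4 and limma voom 1 gene of the mitochondrial ribosome. Of all 13546 genes, edgeR called 8, DESeq2 315 and limma voom 285.

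Markers of host cells were read beside these values. The 4 measured of 7 fibroblast markers summed to 775 to 1192 CPM in CDK4WT and 682 to 1178 CPM in CDK4KO. The 4 measured of 8 macrophage and leukocyte markers summed to 15.2 to 26.7 and 19.0 to 20.3 CPM, and the 4 measured of 5 endothelial markers to 20.4 to 21.8 and 20.4 to 26.1 CPM. ACTA1 and DES, the measured 2 of 6 skeletal muscle markers, summed to 6.85 to 26.2 CPM in CDK4WT and 3.96 to 8.58 CPM in CDK4KO, with means of 15.1 and 6.44. PLIN1, the 1 measured of 4 adipocyte markers, was at 1.18 to 2.58 and 0.723 to 1.27 CPM. By library the muscle sum was 26.2, 14.25, 6.85 and 13.3 CPM in CDK4WT replicates 1 to 4. In CDK4KO replicates 1 to 4 it was 6.36, 8.58, 6.87 and 3.96 CPM. The log2 fold change was -1.21 ± 0.42 for ACTA1 (adjusted p = 0.278 by edgeR, 0.177 by DESeq2). For DES it was -1.33 ± 0.36 (adjusted p = 0.186 by edgeR, 0.0328 by DESeq2). The groups overlap for both genes. DCN, LUM, PDGFRA, CD68, C1QA, C1QB, C1QC, CDH5, MYH1, MYH4, CKM, TNNT3, ADIPOQ, FABP4 and LEP had no row in the table. The part of host cells in the ribosomal protein values was not tested.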

How the data were processed

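Tumour RNA gave 4 CDK4WT and 4 CDK4KO mRNA libraries. What the authors deposited is a single table of raw counts (whole reads per Ensembl gene). Tools named in the submitters' processing notes are cutadapt, STAR 2.7.11a, featureCounts 2.0.4 and DESeq2 1.46.0, with hg38 as the build. Not given in the sources used here are the annotation, the strand setting, the rule for multi-mapping or overlapping reads and the handling of mouse reads. Each gene of the table exceeds 1 CPM in at least 4 libraries, and filterByExpr removed 0. The CDK4KO columns were matched to replicates 1 to 4 through the library names.

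Symbols were found for 13524 of 13546 identifiers. Gene positions, exon overlap and pseudogene names come from GENCODE 29 (hg38), promoters from RefSeq. The genotypes' comparison used edgeR 4.0.16 under R 4.3.3 (TMM, robust quasi-likelihood test, Benjamini-Hochberg over all genes, threshold 0.05), with DESeq2 1.42.0 and limma 3.58.1 voom, other scalings, filters and left-out libraries as alternatives. CPM use TMM library sizes, with a prior count of 2 on the log2 scale. The common biological coefficient of variation was 11.7%. In simulated counts for this comparison over 13546 genes, edgeR called 16.6% of genes changed 1.2-fold, 71.8% of those changed 1.5-fold and 0.0525% of unchanged genes. Relative levels of neighbours are medians over up to 10 measured genes on each side.

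The members, the other gene lists, the marker lists and the role groups were chosen with earlier results of these data known. Genes named with values were, in each subunit, the 6 smallest p-values, the 3 highest and 3 lowest fold changes, the 2 highest and 2 lowest levels per kilobase, and all members of the role groups, which gave 43 genes; other lists give up to 3 genes of smallest p. Some genes of the set and of the lists enter the counts and medians and are not reported here by name.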

Additional observations from a re-analysis of the deposited data

Results flagged for a closer look

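In each genotype, for each of the 43 named genes, the share of counts on ribosomal protein genes, the log2 ratio of the subunits and the members' mean log2 CPM, the highest or lowest of the 4 libraries was set against the others by the ratio of its gap to the group's range, with Dixon's critical value as the limit. Chance flags about 1 in 20 groups, which is 4.6 of the 92 groups tested, and 7 were flagged. Each flag is given as a value, and its cause was not tested.

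RPS4X stood at 755 CPM in CDK4KO replicate 1, where the other CDK4KO libraries were at 482 to 516 CPM. RPL27 was at 299 CPM in CDK4KO replicate 1 beside 324 to 328 CPM in the others. RPL10L was at 1.95 CPM in CDK4KO replicate 1 beside 1.58 to 1.62 CPM. RPL36A was at 6.58 CPM in CDK4KO replicate 3 beside 7.864 to 8.003 CPM. RPL39L was at 13.1 CPM in CDK4KO replicate 4 beside 15.8 to 16.3 CPM. In CDK4WT replicate 4, RPS27L was at 44.0 CPM beside 39.2 to 39.8 CPM, and RPS28 at 298 CPM beside 229 to 241 CPM.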

How the results depend on the processing

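With 4 libraries a genotype, simulated 1.2-fold changes were called in 16.6% of genes, and the members' median change of -10.6% is smaller than 1.2-fold. The simulation drew genes of all levels, each independently and without a shift shared by many genes in a library. It therefore does not give the rate at which changes in these 80 genes would be called. RPL10L rests on 41 to 70 counts a library. Over all genes, the calls at an adjusted p of 0.05 numbered 8 with edgeR, 315 with DESeq2, 285 with limma voom and library quality weights and 14 with library size as the only scaling. Leaving out 1 library gave 0 to 183, the most without CDK4KO replicate 1, and leaving out CDK4KO replicates 1 and 4 together, chosen after seeing the data, gave 447. Among ribosomal protein genes the calls numbered 0 with edgeR, 3 with DESeq2 and 0 with voom, 0 to 1 without 1 library (RPS4X without CDK4KO replicate 1) and 1 without both CDK4KO libraries (RPS4X). The median log2 fold change stayed below 0 in every alternative run: -0.09 with voom and -0.21 to -0.09 without 1 library, for the large subunit -0.21 to -0.08 and for the small subunit -0.21 to -0.09. The difference of the share of counts ran from -0.425 to -0.181 points without 1 library, and that of the log2 ratio of the subunits from 0.02 to 0.04, or 0.001 with each gene's log2 CPM weighted equally. The difference between the subunits' medians ran from 0.00 to 0.03 without 1 library.

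Of 767 values of the 43 named genes under up to 18 alternatives (7 low genes had no value under the level filter), 749 kept direction and side of the threshold, 5 passed it and 13 changed sign, in 8 genes whose values lie near 0. With voom RPL10 was at 0.011 and RPS12 at -0.020, and without CDK4KO replicates 1 and 4 RPS12 was at -0.071. Without 1 library the ranges were -0.093 to 0.071 for RPL10, -0.167 to 0.055 for RPL10L, -0.033 to 0.149 for RPL22, -0.076 to 0.027 for RPLP1, -0.107 to 0.090 for RPS12, -0.135 to 0.000 for RPS23, -0.016 to 0.132 for RPS26 and -0.116 to 0.015 for RPS28. The cause was not tested.

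The replicate numbers are shared by the genotypes, and deviations of same-numbered libraries correlated at -0.03, -0.01, 0.00 and 0.19. Differently numbered libraries were not compared in this way, so these values cannot tell whether the numbers pair the libraries. With the replicate number as a block, 13 genes were called in all and 0 ribosomal protein genes. The members' median was then -0.16, with 24 members lower at an unadjusted p under 0.05. The share of all genes lower at that p was not counted for the block fit.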
